A study of Mus musculus with 13 samples.

Results

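DNA replication and S phase genes were examined as a set of 38 mouse genes, chosen by name for their work in licensing replication origins, synthesising DNA, supplying nucleotides or entering S phase. The rule for membership uses no measured value, but earlier results of these data were known when the genes were chosen. All 38 stood among the 24015 gene symbols of the count table, and all 38 were among the 12536 genes that passed the filter on low counts and were tested. RNA was measured in bulk in 13 libraries of haematopoietic stem cells (HSCs), the blood-forming cells of the bone marrow, from C57BL/6 mice. In the study, single Vwf+ HSCs were transplanted and each primary recipient was classed by the blood lineages that its donor cell supplied over 16 weeks. From recipient bone marrow, donor-derived cells of the phenotype LSKFlt3-CD150+CD48-CD45.2+Gata1- were sorted, at 100 cells per library. The MUL-HSC libraries (n = 4) came from recipients with multilineage reconstitution, the PEM-HSC libraries (n = 6) from PEM-restricted recipients and the PLT-HSC libraries (n = 3) from P-restricted recipients, in the terms of the labels. Strain, sort and transplantation were shared by all 3 groups. With 1 cell transplanted, the donor cells of a recipient are a single clone, and nothing in the labels says that the libraries of a group came from separate recipients. The p-values therefore measure only how these libraries spread, and part of that spread may be technical.

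Before a cell can copy its DNA, the origin recognition complex, with Cdc6 and Cdt1, loads the MCM2-7 helicase onto chromatin. Cdc45 and the GINS proteins then switch the helicase on, DNA polymerases and primase copy the strands on the sliding clamp PCNA, and ribonucleotide reductase and thymidylate enzymes supply the building blocks. Many of these genes are transcribed under E2F factors at the border of G1 and S phase, and adult HSCs are known for resting most of the time outside the cell cycle. In a bulk library of sorted cells, fewer cells in S phase and less RNA of these genes per cell cannot be told apart.

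Gene counts per library ranged from 16371921 to 41367057, and 11233 to 12310 genes had at least 1 count. Levels are given in CPM, the counts of a gene after a library's gene counts are scaled to a total of 1000000. A floor of 3 counts corresponded to 0.0725 to 0.183 CPM and covers counting error only, since no molecular identifiers are named in the labels' protocol. Of the markers of the sorted cells, all 6 stem cell genes (Procr, Slamf1, Kit, Ly6a, Hlf and Mecom) were detected in each group, at a summed 1129 to 2514 CPM, and the 4 T cell genes were at 0 in every library.

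One sequence feature that the choice of genes did not use was the E2F-type site in the promoter. RefSeq promoter entries (build GRCm38.p6) were held for 31 of the 38 genes, and the 250 bases upstream of each gene start were searched on both strands for TTTCGCGC, TTTGGCGC, TTTCCCGC and TTTGCCGC. Matches on opposite strands can overlap. A match was found in 7 of the 31 genes (22.6%), against 583 of 27025 genes in the whole promoter table (2.16%). The 7 genes were Cdc6, Orc1, Mcm5, Mcm6, Mcm7, Pola1 and Rfc3, of which 5 act in origin licensing. What these 7 genes have in common is a match to the search. TTTCGCGC was found in 4 genes, TTTGGCGC in 3, TTTCCCGC in 2 and TTTGCCGC in 0, and a gene can hold more than 1. The windows that hold the matches are shown with the bases around them. Each is written 5′ to 3′ on the gene's own strand, with the matched bases in capitals.
Cdc6 (chr11:98907993-98908040, + strand): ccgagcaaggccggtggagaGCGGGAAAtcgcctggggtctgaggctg
Orc1 (chr4:108579407-108579453, + strand): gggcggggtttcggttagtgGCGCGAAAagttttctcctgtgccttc
Mcm5 (chr8:75109336-75109387, + strand): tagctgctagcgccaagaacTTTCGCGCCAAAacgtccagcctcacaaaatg
Mcm6 (chr1:128359725-128359835, - strand): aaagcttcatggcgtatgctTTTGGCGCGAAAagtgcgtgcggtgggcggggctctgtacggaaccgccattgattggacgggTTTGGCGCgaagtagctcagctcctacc
Mcm7 (chr5:138172021-138172068, - strand): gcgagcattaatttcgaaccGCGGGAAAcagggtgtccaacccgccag
Pola1 (chrX:93632266-93632313, - strand): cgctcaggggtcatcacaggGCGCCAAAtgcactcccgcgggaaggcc
Rfc3 (chr5:151651209-151651238, - strand): ccggaagtgacgtcgcacgcTTTCGCGCtc

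In Mcm5 and in the distal stretch of Mcm6, a match on each strand overlapped the other, so that the capitals form a run longer than 1 site. Mcm6 held 3 matches, at 110, 106 and 47 bases upstream of its start. Over the 7 genes the 10 matches lay 10 to 165 bases upstream. Among 69 further replication genes, listed for the same pathway and given below, 14 of the 58 with an entry held a match (24.1%), and among 21 mitosis genes 1 of 18 did (5.56%). Gmnn, Mcm4, Gins1, Gins2, Pole, Rfc2 and Ccne2 had no entry. A match describes the letters of the DNA and not the binding of a factor, and the counts behind the expression values were made on another build, mm9.

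The summed level of the replication genes averaged lowest in PLT-HSC and highest in MUL-HSC, but no single gene passed the edgeR test across all genes. In PLT-HSC against MUL-HSC, 31 of the 38 (81.6%) had a lower estimate, with a median log2 fold change of -0.73. Over all 12536 genes tested, 47.5% had a lower estimate and the median was 0.04. By the quasi-likelihood test of edgeR with Benjamini-Hochberg adjustment, 0 of the 38 had an adjusted p under 0.05, against 0.0479% of all genes, and the smallest adjusted p was 0.201, for Rfc2. At an unadjusted p under 0.05, 9 of the 38 were lower in PLT-HSC (Prim1, Rfc2, Rfc4, Rfc5, Rpa2, Rrm1, Rrm2, Chaf1b and Slbp) and 0 were higher, beside 3.26% of all genes lower at that level. For 2 of the 38, Rfc2 and Chaf1b, every PLT-HSC library lay below every MUL-HSC library, beside 3.04% of all genes. DESeq2 called 1 of the 38, Rfc2, at an adjusted p of 0.0029, beside 2.24% of all genes it tested, and limma-voom called 0 of the 38 and 0% of all genes. Of 7 genes with a higher estimate in PLT-HSC, 4 (Mcm10, Chaf1a, E2f1 and Ccne1) averaged under 15 CPM in both groups, and the others were Mcm4, Cdc45 and Rpa1.

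In PEM-HSC against MUL-HSC, 32 of the 38 (84.2%) had a lower estimate, with a median of -0.40 beside 0.01 over all genes, of which 49.3% were lower. Here edgeR again called 0 of the 38, against 0.00798% of all genes. Rfc2 and Slbp were lower at an unadjusted p under 0.05 and 0 were higher, beside 2.09% of all genes lower, and Cdt1 was the 1 member whose libraries did not overlap between the groups, beside 0.63% of all genes. In PLT-HSC against PEM-HSC, 27 of the 38 (71.1%) had a lower estimate and the median was -0.30, beside 48.5% and 0.02 over all genes. No member was called by edgeR there, as in 0% of all genes, 1 (Rfc5) was lower at an unadjusted p under 0.05 beside 2.15% of all genes, and 0 of the 38 were lower without overlap, beside 1.06%. DESeq2 called 0 of the 38 in both of these comparisons, beside 1.67% and 0.911% of all genes, and limma-voom called 0, beside 0.00798% in each. The 3 comparisons share libraries in pairs, so their values for a gene are set side by side and are not separate evidence.

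**Figure D1:**
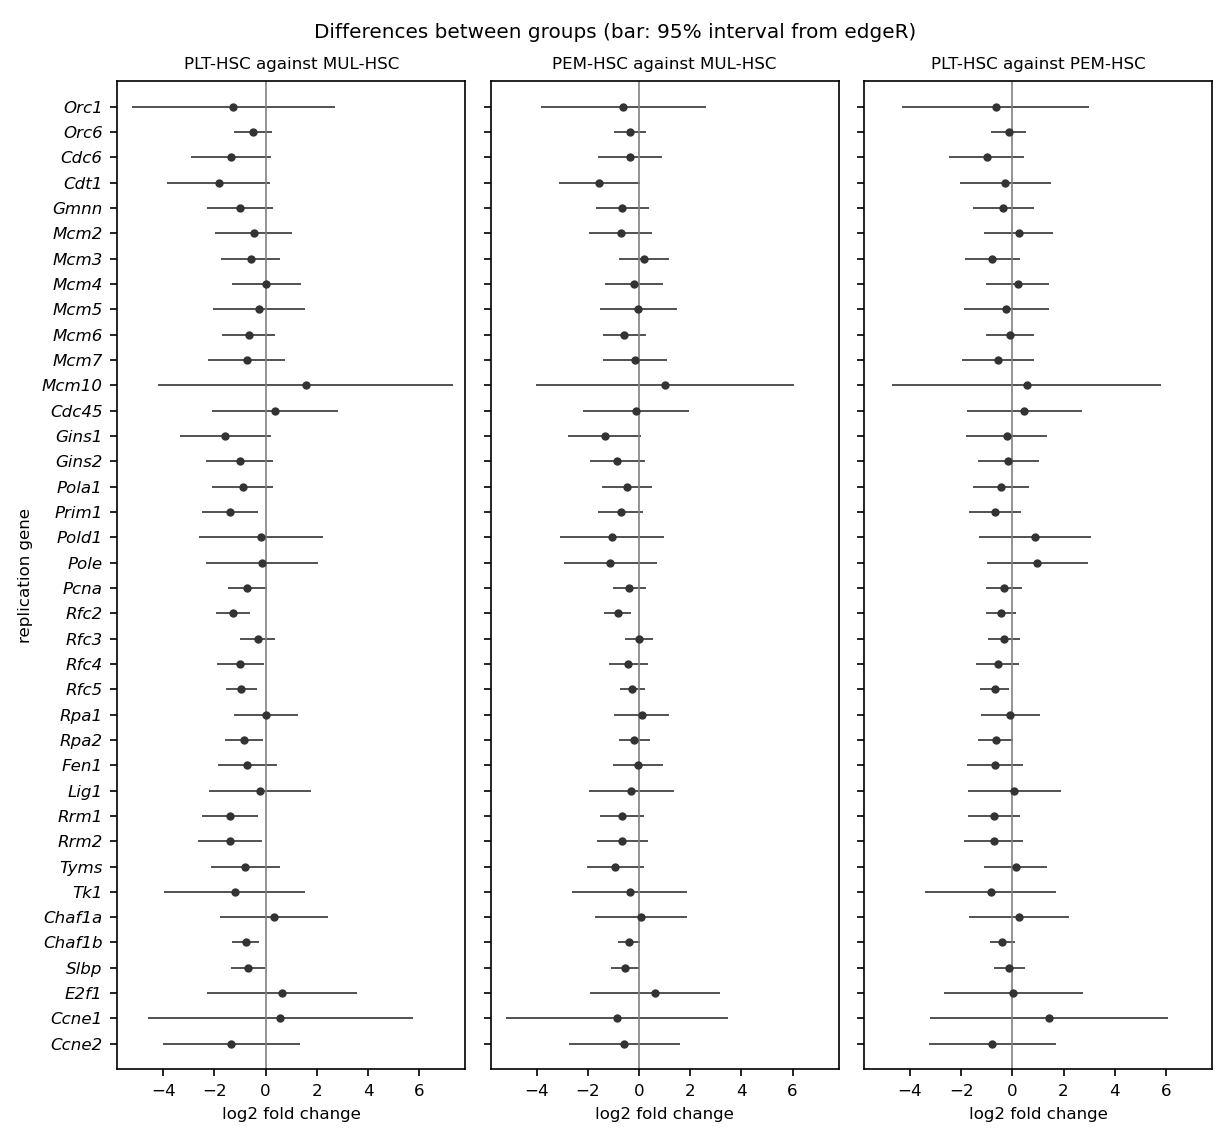
Log2 fold change of each of the 38 replication genes in the 3 comparisons (points), with the 95% interval from edgeR (bars), ordered by role. Most points lie below 0 in PLT-HSC against MUL-HSC, where 31 of 38 were lower, and most intervals cross 0.

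The summed level of the set spanned a wider range between the libraries of each group than between the group means. The gap between the MUL-HSC and PLT-HSC means was larger than the SD of any group. Summed over the 38 genes, MUL-HSC replicates 1 to 4 held 6446, 5301, 2651 and 5204 CPM, and PLT-HSC replicates 1 to 3 held 1756, 2375 and 4571 CPM. PEM-HSC libraries held 2339, 2833, 5313, 4625, 3062 and 3368 CPM. These sums averaged 4900.4 ± 1602 CPM over the 4 MUL-HSC libraries (SD), 3589.9 ± 1141 CPM over the 6 of PEM-HSC and 2901 ± 1479 CPM over the 3 of PLT-HSC. MUL-HSC replicate 3 thus stood near the lower PLT-HSC libraries, and PLT-HSC replicate 3 near the MUL-HSC libraries. Within its group, PLT-HSC replicate 3 was the highest library for 34 of the 38 genes (89.5%), against 43.2% of all genes tested. PLT-HSC replicate 1 was the single lowest of all 13 libraries for 19 of the 38, against 8.12% of all genes, and MUL-HSC replicate 1 was the highest of the 13 for 12 of the 38, against 7.99% of all genes. MUL-HSC replicate 3 was the lowest of its group for 28 of the 38 (73.7%), against 21.3% of all genes.

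**Figure D2:**
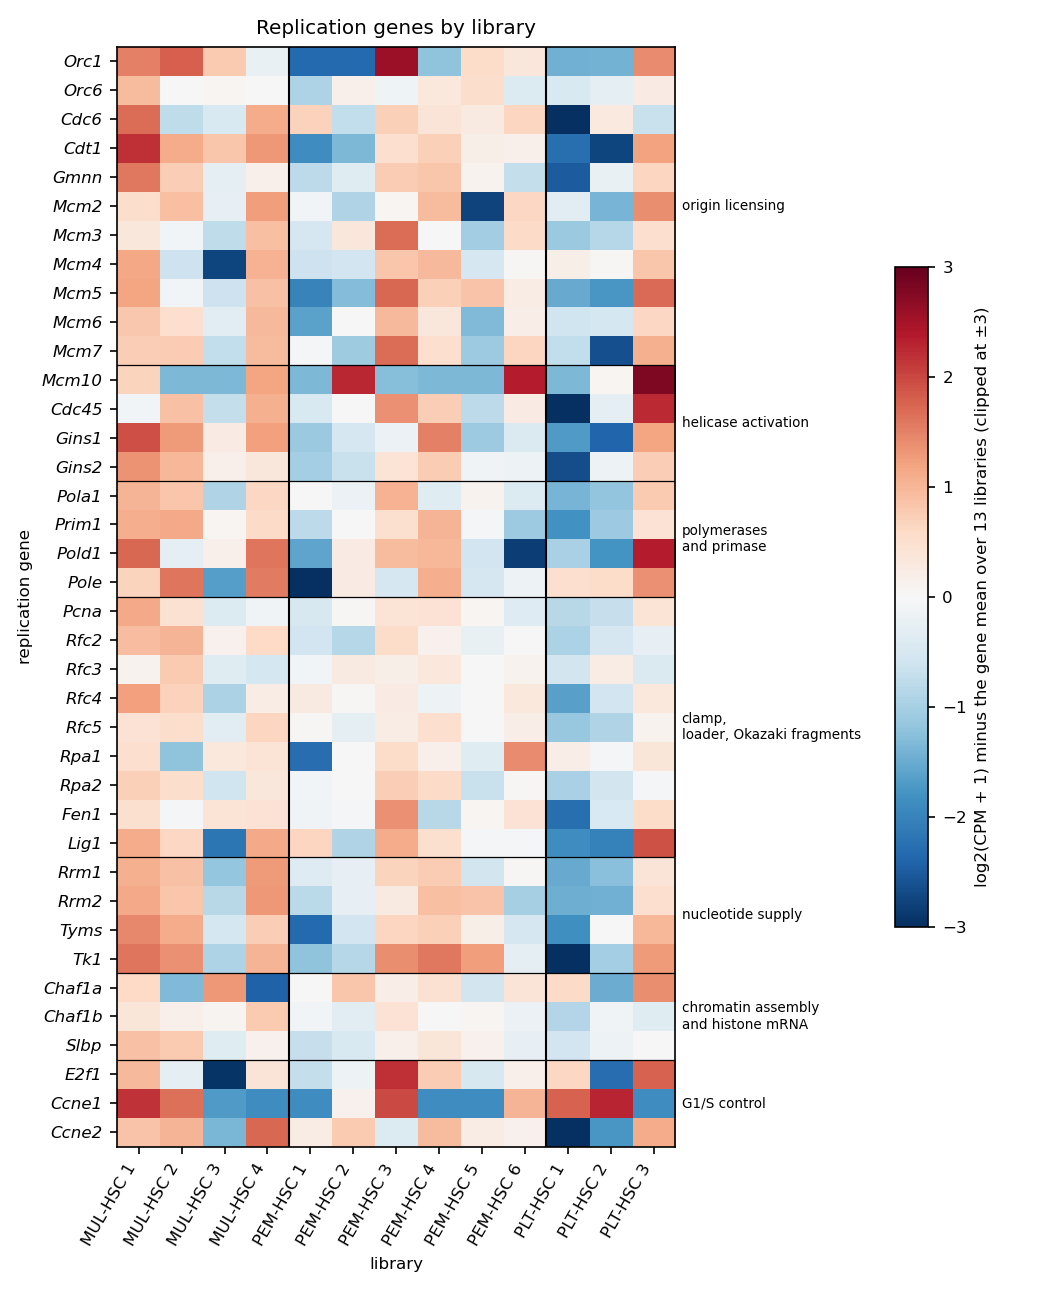
Level of each replication gene (rows, grouped by role) in each of the 13 libraries (columns, grouped by MUL-HSC, PEM-HSC and PLT-HSC), as log2(CPM + 1) minus the gene's mean over the libraries. PLT-HSC replicates 1 and 2, PEM-HSC replicates 1 and 2 and MUL-HSC replicate 3 are mostly blue (low), and PLT-HSC replicate 3, PEM-HSC replicates 3 and 4 and MUL-HSC replicates 1, 2 and 4 are mostly red (high).

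Single libraries accordingly set the size of the group differences. Without PLT-HSC replicate 3, 37 of the 38 had a lower estimate in PLT-HSC than in MUL-HSC, the median was -1.40, and 19 reached an unadjusted p under 0.05. Without PLT-HSC replicate 1 these values were 27, -0.48 and 3, and without MUL-HSC replicate 1 they were 28, -0.53 and 5. Of all genes tested, 3.54%, 2.63% and 2.64% were lower at that level in the same order of fits. The counts of the 38 at that level take both directions. In PLT-HSC against PEM-HSC, leaving out PLT-HSC replicate 3 gave 35 lower, a median of -1.02 and 15 at an unadjusted p under 0.05. Leaving out PLT-HSC replicate 1 gave 20, -0.04 and 0. Of all genes, 2.76% and 2.18% were lower at that level in these fits. The median of that comparison was -0.17 without PLT-HSC replicate 2, -0.14 without PEM-HSC replicate 3 and -0.18 without PEM-HSC replicate 4. The median in PEM-HSC against MUL-HSC was -0.19 without MUL-HSC replicate 1 and -0.68 without MUL-HSC replicate 3. Across these fits edgeR called 0 of the 38 in every comparison. It called few genes of any kind, at most 37 of 12996, in PLT-HSC against MUL-HSC without PLT-HSC replicate 3.

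Within a group, the SD of log2 CPM of a replication gene had a median of 1.35 in PLT-HSC, 0.85 in MUL-HSC and 0.77 in PEM-HSC, where the medians over all genes tested were 0.70, 0.70 and 0.73. The biological coefficient of variation that edgeR estimated over all 13 libraries had a median of 0.565 for the 38 genes and 0.624 for all genes. The 38 genes also had the higher median level, 58.4 CPM beside 26.9 CPM, and genes of like level were not compared. Chaf1b had the smallest coefficient of the 38, 0.258, followed by Rfc5, Rfc2 and Slbp at 0.283, 0.295 and 0.301, and Mcm10 the largest, 2.53.

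Origin licensing genes were lower on average in PLT-HSC and in PEM-HSC than in MUL-HSC, for 10 of 11 in each comparison, and 0 of 11 had an unadjusted p under 0.05 in either. The median log2 fold change of the 11 was -0.67 in PLT-HSC against MUL-HSC, -0.36 in PEM-HSC against MUL-HSC and -0.28 in PLT-HSC against PEM-HSC. Mcm4 was the member with a higher estimate in PLT-HSC than in MUL-HSC, and Mcm3 the one in PEM-HSC. Cdt1, the loader that brings the MCM2-7 helicase to the origin, had the largest difference of the 38 genes in both comparisons with MUL-HSC. Its levels in MUL-HSC replicates 1 to 4 were 76.1, 35.5, 29.1 and 40.8 CPM. In PEM-HSC they ran from 3.64 to 26.7 CPM with a median of 18.0, and in PLT-HSC replicates 1 to 3 they were 2.52, 1.49 and 38.1 CPM. All 6 PEM-HSC libraries thus lay below all 4 MUL-HSC libraries, while in PLT-HSC 2 libraries lay below every PEM-HSC library and replicate 3 within the MUL-HSC range. The log2 fold change was -1.56 in PEM-HSC against MUL-HSC (SE 0.75, 95% interval -3.14 to 0.02, edgeR adjusted p = 0.859) and -1.83 in PLT-HSC against MUL-HSC (SE 0.95, 95% interval -3.84 to 0.17, edgeR adjusted p = 0.741).

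Geminin (Gmnn), the protein that holds Cdt1 in check after licensing, and Cdc6, which loads the helicase together with Cdt1, also had lower estimates in PLT-HSC than in MUL-HSC. Gmnn stood at 234, 131, 65.0 and 86.3 CPM in MUL-HSC and at 12.96, 67.0 and 123 CPM in PLT-HSC, a log2 fold change of -0.99 (SE 0.61). Cdc6 stood at 107, 19.0, 23.5 and 72.4 CPM in MUL-HSC and at 2.72, 40.2 and 20.1 CPM in PLT-HSC, a log2 fold change of -1.36 (SE 0.74). The groups overlapped in both genes. The origin recognition subunits Orc6 and Orc1 were found at 46.0 to 171 CPM and at 0 to 28.6 CPM over the 13 libraries, with 0 counts of Orc1 in 2 PEM-HSC libraries. Per kilobase of exon their mean levels were 57.8 and 2.46 CPM. Their log2 fold changes in PLT-HSC against MUL-HSC were -0.49 (SE 0.36) and -1.26 (SE 1.88).

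Estimates for the 6 subunits of the MCM2-7 helicase differed in size and sign between the groups. Mcm6 was at 476, 383, 215 and 538 CPM in MUL-HSC, from 89.1 to 535 CPM with a median of 292 in PEM-HSC, and at 179, 189 and 418 CPM in PLT-HSC. Its lowest MUL-HSC library lay above 2 of 3 PLT-HSC libraries, and in PLT-HSC against MUL-HSC it had a log2 fold change of -0.67 (SE 0.49, 95% interval -1.70 to 0.37, edgeR adjusted p = 0.917). Mcm4 was at 212, 61.2, 13.1 and 197 CPM in MUL-HSC, from 61.1 to 188 CPM with a median of 81.8 in PEM-HSC, and at 108, 98.1 and 169 CPM in PLT-HSC. Every PLT-HSC value of Mcm4 lay inside the MUL-HSC range, and its log2 fold change was 0.03 (SE 0.63, 95% interval -1.31 to 1.36, edgeR adjusted p = 0.999). The sign of that estimate rested on MUL-HSC replicate 3, where Mcm4 was lowest, since it was -0.34 without that library, and it was also negative when replicate 2 of MUL-HSC or replicate 3 of PLT-HSC was left out. Mcm2, Mcm3, Mcm5 and Mcm7 had log2 fold changes of -0.47, -0.58, -0.27 and -0.74 in PLT-HSC against MUL-HSC, with SEs from 0.54 to 0.85. In PEM-HSC against MUL-HSC, Mcm6 had a log2 fold change of -0.57 (SE 0.40) and Mcm4 of -0.19 (SE 0.53).

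For complexes that form with 1 copy of each subunit, CPM was divided by the merged length of all annotated exons of a gene. That length can exceed the length of the transcripts present. Per kilobase of annotated exon, Mcm6 was the highest of the 6 MCM2-7 genes in 12 of 13 libraries and Mcm7 in the other. Mean levels in MUL-HSC were 92.2 CPM per kilobase for Mcm6, 41.4 for Mcm7, 36.6 for Mcm3, 33.7 for Mcm4, 19.9 for Mcm2 and 15.8 for Mcm5. Of the clamp loader genes Rfc2 to Rfc5, Rfc3 was highest per kilobase in 10 of 13 libraries, Rfc4 in 2 and Rfc2 in 1. Their means in MUL-HSC were 129 CPM per kilobase for Rfc4, 128 for Rfc3, 126 for Rfc2 and 67.9 for Rfc5, and in PLT-HSC they were 67.7, 103, 52.7 and 36.2 in the same order. Over all 13 libraries the highest of the 38 genes per kilobase was Pcna, with a mean of 173. The order of subunits depends on these lengths. Merged exons were 4.995 kilobases for Rfc2 but 1.317 for Rfc3 and 1.307 for Rfc4. Before division, Rfc2 averaged 629 CPM in MUL-HSC, and Rfc3 and Rfc4 each averaged 169 CPM. Exon lengths came from a later mouse annotation than the counts, and 3′ or 5′ bias in the libraries was not tested.

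**Figure D3:**
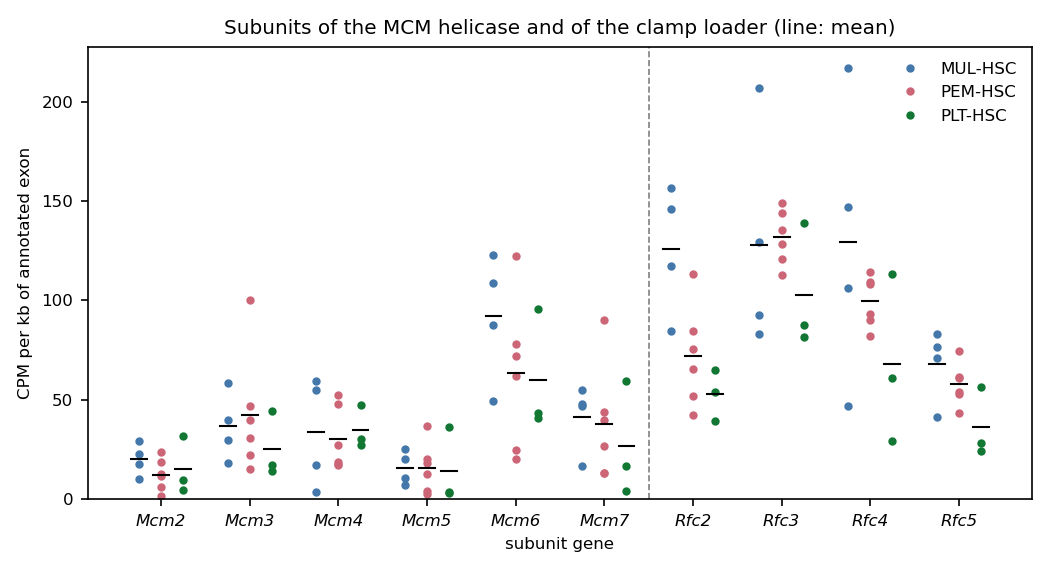
CPM per kilobase of annotated exon for the 6 subunits of the MCM2-7 helicase and 4 subunits of the clamp loader, 1 point per library and a line at each group mean. Mcm6 lies above the other helicase subunits in most libraries, and the PLT-HSC means of Rfc2, Rfc4 and Rfc5 lie below the MUL-HSC means.

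Helicase activation genes had no common direction. Gins1 and Gins2, subunits of the GINS complex that joins Cdc45 and MCM2-7 into the active helicase, had lower estimates in PLT-HSC than in MUL-HSC, while Cdc45 and Mcm10, a factor needed for firing, had higher ones. Gins1 was at 93.1, 57.9, 28.0 and 56.6 CPM in MUL-HSC, from 10.2 to 68.5 CPM with a median of 16.5 in PEM-HSC, and at 6.55, 3.73 and 54.7 CPM in PLT-HSC. In 5 of 6 PEM-HSC and 2 of 3 PLT-HSC libraries it lay below every MUL-HSC library. Its log2 fold change was -1.57 in PLT-HSC against MUL-HSC (SE 0.84, 95% interval -3.34 to 0.20, edgeR adjusted p = 0.752) and -1.35 in PEM-HSC against MUL-HSC (SE 0.67, 95% interval -2.76 to 0.06, edgeR adjusted p = 0.879). Gins2 was at 110, 86.5, 47.7 and 54.9 CPM in MUL-HSC, from 20.7 to 73.5 CPM with a median of 39.1 in PEM-HSC, and at 5.89, 38.7 and 71.9 CPM in PLT-HSC. Its groups overlapped, with log2 fold changes of -1.01 (SE 0.62) in PLT-HSC and -0.85 (SE 0.50) in PEM-HSC against MUL-HSC. For Cdc45 the PLT-HSC libraries spanned 0 counts to 84.2 CPM, wider than the span of the other 10 libraries (9.53 to 45.6 CPM), and Mcm10 had 0 counts in 6 of 13 libraries.

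All 4 polymerase and primase genes had lower estimates in both comparisons with MUL-HSC, with medians of -0.54 in PLT-HSC and -0.89 in PEM-HSC. Prim1, the catalytic subunit of the primase that lays the RNA primers, had an unadjusted p under 0.05 in PLT-HSC. It was at 215, 220, 104 and 150 CPM in MUL-HSC, from 46.5 to 205 CPM with a median of 99.3 in PEM-HSC, and at 27.6, 46.4 and 135 CPM in PLT-HSC. Replicates 1 and 2 of PLT-HSC lay below every MUL-HSC library, and replicate 3 between MUL-HSC replicates 3 and 4. The difference in PLT-HSC against MUL-HSC was 2.61-fold, a log2 fold change of -1.38 (SE 0.52, 95% interval -2.48 to -0.28, edgeR adjusted p = 0.630). Pola1, the catalytic subunit of the polymerase that extends those primers, was at 90.0, 79.2, 23.1 and 68.7 CPM in MUL-HSC, from 32.8 to 92.6 CPM with a median of 41.8 in PEM-HSC, and at 16.3, 18.9 and 77.0 CPM in PLT-HSC. MUL-HSC replicate 3 stood near the 2 low PLT-HSC libraries, and the log2 fold change was -0.89 (SE 0.56, edgeR adjusted p = 0.849). Pold1 and Pole, the catalytic subunits of the lagging and leading strand polymerases, had log2 fold changes of -0.18 (SE 1.15) and -0.14 (SE 1.04) in PLT-HSC and of -1.06 (SE 0.95) and -1.12 (SE 0.86) in PEM-HSC against MUL-HSC. Pole stood at 7.88 to 84.1 CPM in MUL-HSC and at 38.5 to 71.9 CPM in PLT-HSC, and in PEM-HSC replicate 1 it was at 0.0357 CPM, under the floor of 3 counts there (0.107 CPM).

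The genes of the clamp, the clamp loader and Okazaki fragment maturation held 4 of the 9 genes with an unadjusted p under 0.05 in PLT-HSC against MUL-HSC, namely Rfc2, Rfc4, Rfc5 and Rpa2. Of the 9 genes in this group 8 had a lower estimate, with a median of -0.71, and in PEM-HSC against MUL-HSC 7 of 9 did, with a median of -0.26. Rfc2, a subunit of the loader that opens PCNA and sets it on DNA, had the smallest p of the 38 genes in both comparisons with MUL-HSC. Its levels were 729, 781, 422 and 586 CPM in MUL-HSC replicates 1 to 4, 197, 270 and 323 CPM in PLT-HSC, and 211 to 566 CPM with a median of 352 in PEM-HSC. All 3 PLT-HSC libraries lay below all 4 MUL-HSC libraries, and 5 of 6 PEM-HSC libraries did so too. In PLT-HSC against MUL-HSC it was 2.43-fold lower, a log2 fold change of -1.28 (SE 0.31, 95% interval -1.94 to -0.63, edgeR adjusted p = 0.201), and in PEM-HSC against MUL-HSC the log2 fold change was -0.84 (SE 0.25, 95% interval -1.37 to -0.31, edgeR adjusted p = 0.598). Between PLT-HSC and PEM-HSC it was -0.44 (SE 0.28).

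Rfc5, another loader subunit, was the 1 gene of the 38 with an unadjusted p under 0.05 between PLT-HSC and PEM-HSC. It was at 230, 247, 134 and 268 CPM in MUL-HSC, from 140 to 241 CPM with a median of 186 in PEM-HSC, and at 77.7, 91.4 and 183 CPM in PLT-HSC. PLT-HSC replicates 1 and 2 lay below every other library, and replicate 3 inside the PEM-HSC range. The log2 fold change was -0.95 against MUL-HSC (SE 0.29, 95% interval -1.56 to -0.34, edgeR adjusted p = 0.451) and -0.69 against PEM-HSC (SE 0.27, 95% interval -1.26 to -0.13, edgeR adjusted p = 1). Rfc4 was at 283, 192, 61.3 and 139 CPM in MUL-HSC and at 38.05, 79.4 and 148 CPM in PLT-HSC, a log2 fold change of -0.99 (SE 0.43 and edgeR adjusted p = 0.647) between overlapping groups. Rfc3 showed the smallest difference of the 4 loader genes, with a log2 fold change of -0.32 in PLT-HSC (SE 0.32, 95% interval -0.98 to 0.35) and 0.00 in PEM-HSC against MUL-HSC (SE 0.27, 95% interval -0.56 to 0.56).

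Pcna itself was at 540, 336, 183 and 226 CPM in MUL-HSC, from 175 to 329 CPM with a median of 253 in PEM-HSC, and at 136, 151 and 326 CPM in PLT-HSC. MUL-HSC replicate 1 was the highest library and PLT-HSC replicates 1 and 2 the lowest, and the groups overlapped. Its log2 fold change was -0.71 in PLT-HSC (SE 0.36, 95% interval -1.48 to 0.06, edgeR adjusted p = 0.727) and -0.38 in PEM-HSC against MUL-HSC (SE 0.30), the latter 0.016 without MUL-HSC replicate 1. Rpa2, a subunit of the complex that coats single-stranded DNA, was at 246, 215, 98.1 and 189 CPM in MUL-HSC, from 94.0 to 248 CPM with a median of 151 in PEM-HSC, and at 75.5, 102 and 142 CPM in PLT-HSC. The PLT-HSC libraries overlapped MUL-HSC through replicate 3 of MUL-HSC alone, and the log2 fold change was -0.84 (SE 0.35, 95% interval -1.57 to -0.11, edgeR adjusted p = 0.646). Against PEM-HSC it was -0.65 (SE 0.32). Rpa1, the large subunit of the same complex, had a log2 fold change of 0.02 in PLT-HSC against MUL-HSC (SE 0.59, 95% interval -1.23 to 1.27). Fen1 and Lig1, the nuclease and ligase that join Okazaki fragments, had log2 fold changes of -0.71 (SE 0.55) and -0.23 (SE 0.94) in PLT-HSC and of -0.04 (SE 0.46) and -0.30 (SE 0.79) in PEM-HSC against MUL-HSC.

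**Figure D4:**
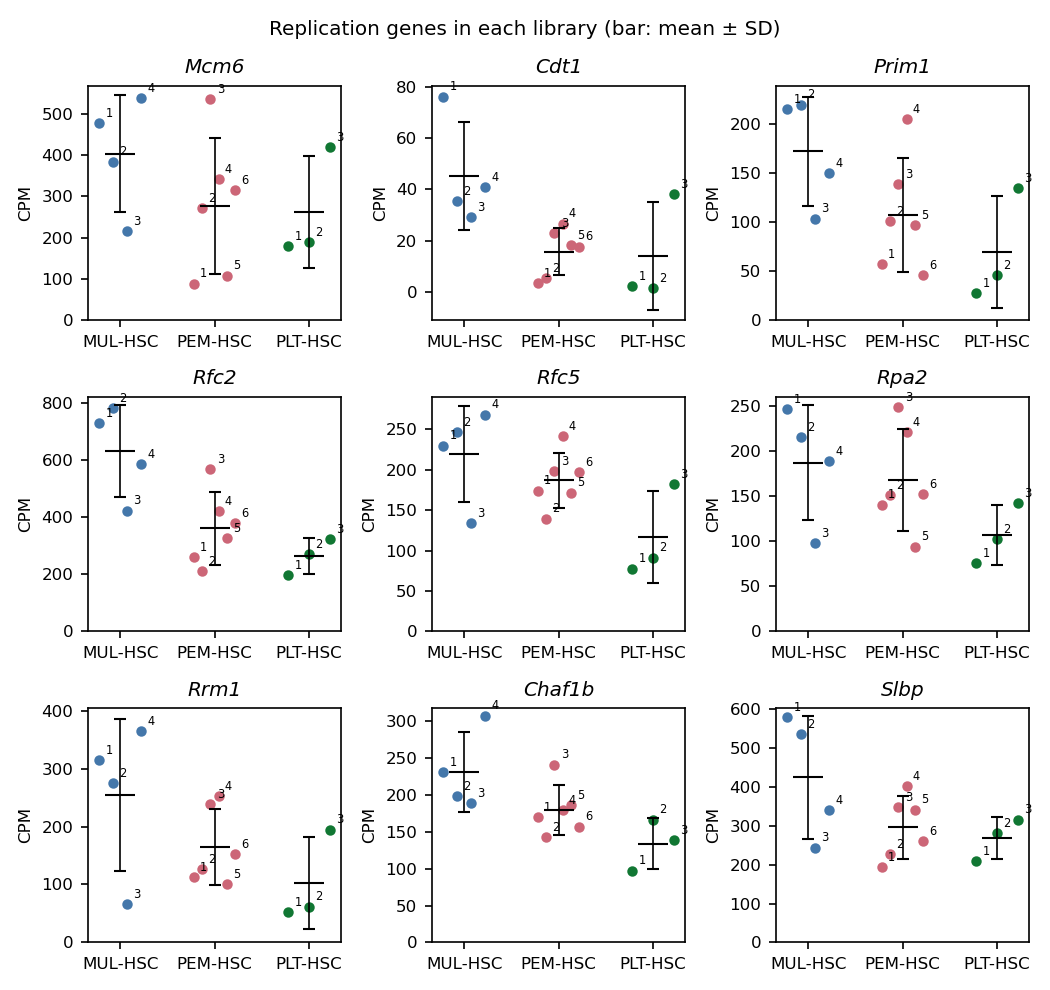
CPM of 9 replication genes in each library, with the replicate number beside each point and the group mean ± SD as bars (MUL-HSC n = 4, PEM-HSC n = 6, PLT-HSC n = 3). In Rfc2 and Chaf1b all PLT-HSC points lie below all MUL-HSC points, and in Mcm6, Prim1, Rfc5 and Rrm1 PLT-HSC replicate 3 lies apart from replicates 1 and 2.

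The 4 nucleotide supply genes had the lowest median of the 7 roles in PLT-HSC against MUL-HSC, at -1.30, and all 4 estimates were lower in both comparisons with MUL-HSC (median -0.66 in PEM-HSC). Rrm1 encodes the large and Rrm2 the small subunit of ribonucleotide reductase, which makes deoxynucleotides. Rrm1 was at 315, 275, 66.5 and 365 CPM in MUL-HSC, from 101 to 253 CPM with a median of 139 in PEM-HSC, and at 51.7, 61.8 and 195 CPM in PLT-HSC. It was 2.60-fold lower in PLT-HSC than in MUL-HSC, a log2 fold change of -1.38 (SE 0.52, 95% interval -2.47 to -0.29, edgeR adjusted p = 0.630), with MUL-HSC replicate 3 inside the PLT-HSC range. Rrm2 followed the same order of libraries in both groups, at 157, 126, 39.0 and 175 CPM in MUL-HSC and 24.9, 25.2 and 101 CPM in PLT-HSC, with a log2 fold change of -1.38 (SE 0.59 and edgeR adjusted p = 0.646). Tyms, which makes thymidylate, was at 317, 249, 79.2 and 192 CPM in MUL-HSC, from 22.1 to 188 CPM with a median of 105 in PEM-HSC, and at 31.5, 116 and 230 CPM in PLT-HSC. Its groups overlapped, with log2 fold changes of -0.80 (SE 0.64) in PLT-HSC and -0.93 (SE 0.53) in PEM-HSC against MUL-HSC. Tk1, the S phase thymidine kinase, had 0 counts in PLT-HSC replicate 1, where the floor was 0.103 CPM, and 17.3 and 88.9 CPM in the other 2 PLT-HSC libraries, while MUL-HSC ran from 18.6 to 113 CPM.

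Of the genes for chromatin assembly and histone mRNA, Chaf1b and Slbp were among the least variable of the 38. Chaf1b encodes a subunit of CAF-1, which places histones on new DNA. It was at 231, 198, 188 and 307 CPM in MUL-HSC, from 142 to 241 CPM with a median of 175 in PEM-HSC, and at 97.1, 166 and 138 CPM in PLT-HSC. All PLT-HSC libraries lay below all MUL-HSC libraries, and here PLT-HSC replicate 3 was not the highest of its group. The difference was 1.71-fold, a log2 fold change of -0.78 (SE 0.25, 95% interval -1.31 to -0.24, edgeR adjusted p = 0.496), and in PEM-HSC against MUL-HSC it was -0.38 (SE 0.21). Slbp, which binds and processes the mRNA of replication-dependent histones, was at 578, 535, 244 and 340 CPM in MUL-HSC, from 194 to 401 CPM with a median of 301 in PEM-HSC, and at 209, 281 and 316 CPM in PLT-HSC. MUL-HSC replicates 1 and 2 lay above every other library and replicate 3 within the other groups. The log2 fold change was -0.68 in PLT-HSC (SE 0.31, 95% interval -1.34 to -0.03, edgeR adjusted p = 0.658) and -0.56 in PEM-HSC (SE 0.26, 95% interval -1.10 to -0.02, edgeR adjusted p = 0.822). Chaf1a, the other CAF-1 subunit measured, had a mean of 2.13 CPM per kilobase over the 13 libraries where Chaf1b had 94.5, with a log2 fold change of 0.33 in PLT-HSC against MUL-HSC (SE 0.998).

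The G1/S control genes had low levels in these libraries and wide intervals. E2f1, which activates many replication genes, was at 14.3, 5.44, 0 and 9.19 CPM in MUL-HSC, from 3.71 to 34.3 CPM with a median of 6.76 in PEM-HSC, and at 10.8, 0.576 and 25.3 CPM in PLT-HSC. In PLT-HSC against MUL-HSC it had a log2 fold change of 0.65 (SE 1.38, 95% interval -2.27 to 3.58, edgeR adjusted p = 0.999), and it was -0.33 without PLT-HSC replicate 3. Ccne2, a cyclin E that activates Cdk2 at the start of S phase, was at 20.1, 22.7, 3.54 and 37.7 CPM in MUL-HSC, from 7.84 to 21.6 CPM with a median of 12.6 in PEM-HSC, and at 0, 2.47 and 24.4 CPM in PLT-HSC. The log2 fold change was -1.35 (SE 1.26, 95% interval -4.02 to 1.33, edgeR adjusted p = 0.995). Ccne1, the other cyclin E gene, had 0 counts in 5 of 13 libraries and reached 16.8 CPM. In PLT-HSC its libraries ran against those of most replication genes, with 11.3 and 16.8 CPM in replicates 1 and 2 and 0 counts in replicate 3.

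The 69 further replication genes cover further origin, fork, nucleotide and S phase chromatin genes and 15 regulators of the G1/S border, among them Myb. Most of them lay on the same side. In PLT-HSC against MUL-HSC 50 of 69 had a lower estimate, with a median of -0.40. At an unadjusted p under 0.05, 9 were lower (Orc3, Mcmbp, Tipin, Rnaseh2b, Dctpp1, Dtymk, Shmt1, Asf1a and Hells) and 1, Samhd1, was higher. Over all 12536 genes tested, 409 (3.26%) were lower and 515 higher at that level. Samhd1 is the enzyme that breaks deoxynucleotides down. It was at 81.4, 91.1, 77.8 and 105 CPM in MUL-HSC and at 291, 148 and 130 CPM in PLT-HSC. Without overlap between these groups, 1 of the 69 (Samhd1) was higher and 5 were lower (Orc3, Mcmbp, Tipin, Rnaseh2b and Asf1a). Over all 12536 genes, 470 were higher and 381 (3.04%) lower without overlap. By edgeR 0 of the 69 had an adjusted p under 0.05 in any of the 3 comparisons, and the smallest adjusted p was 0.194, for Rnaseh2b in PLT-HSC against MUL-HSC. DESeq2, which called 286 genes in all there where edgeR called 6, called 4 of the 69 (Mcmbp, Tipin and Rnaseh2b lower and Samhd1 higher), and limma-voom called 0. In PEM-HSC against MUL-HSC 52 of 69 were lower, with a median of -0.28. At an unadjusted p under 0.05, 9 were lower and 1 higher, beside 262 (2.09%) lower and 482 higher of all 12536 genes. In PLT-HSC against PEM-HSC 43 of 69 were lower, with a median of -0.13. There 4 were lower and 1 higher at that level, beside 269 (2.15%) lower and 198 higher of all genes. DESeq2 and limma-voom called 0 of the 69 in both of these comparisons. Nme1, a nucleoside diphosphate kinase, and Myb, a transcription factor of blood progenitors, had the highest CPM of this list, at 816 ± 169 and 413 ± 96.7 CPM in MUL-HSC (SD, n = 4), 710 ± 65.8 and 364 ± 125 CPM in PEM-HSC (n = 6) and 651 ± 183 and 286 ± 90.8 CPM in PLT-HSC (n = 3).

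Mitosis genes were compared because most of them work in cell division, after S phase. In each library the mean log2 CPM of both lists was taken, centred over the 13 libraries. For the 38 replication genes this mean was 1.25, 0.63, -0.66 and 0.59 in MUL-HSC replicates 1 to 4 and -1.58, -0.64 and 0.72 in PLT-HSC replicates 1 to 3. For the 21 mitosis genes it was 1.28, 1.83, -2.77 and 1.28 in MUL-HSC and -4.11, -2.29 and 1.90 in PLT-HSC. MUL-HSC replicate 3 and PLT-HSC replicates 1 and 2 were thus low for both lists, and PLT-HSC replicate 3 was among the 3 highest libraries for both. The mitosis genes spanned the wider range. Several of them, such as Plk1, Kif11, Birc5, Ube2c and Ttk, had 0 counts in both MUL-HSC replicate 3 and PLT-HSC replicate 1. The part of such low counts in the range was not tested. PEM-HSC replicate 1 stood apart: it was the second lowest library for the replication genes, at -1.07, but lay above the mean for the mitosis genes, at 0.91. PEM-HSC replicate 3 was the second highest for the replication genes, at 0.78, with 0.45 for mitosis, and PEM-HSC replicate 4 was highest of the 13 for mitosis, at 2.57, with 0.33 for replication. Between the groups 18 of 21 mitosis genes had a lower estimate in PLT-HSC than in MUL-HSC, with a median of -0.86, and edgeR, DESeq2 and limma-voom called 0 in any comparison. At an unadjusted p under 0.05 edgeR had 1 of the 21, Kif20a, lower in PLT-HSC than in MUL-HSC, beside 3.26% of all genes. In the other comparisons 0 of the 21 reached that level. In PEM-HSC against MUL-HSC 9 of 21 were lower with a median of 0.04, whereas 32 of 38 replication genes were lower there, and this difference between the lists was not tested. Ccnb2, a mitotic cyclin, and Cdk1, its kinase, had the highest CPM of the 21, at 176 ± 99.0 and 92.1 ± 34.8 CPM in MUL-HSC and 103 ± 137 and 72.5 ± 82.3 CPM in PLT-HSC.

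**Figure D5:**
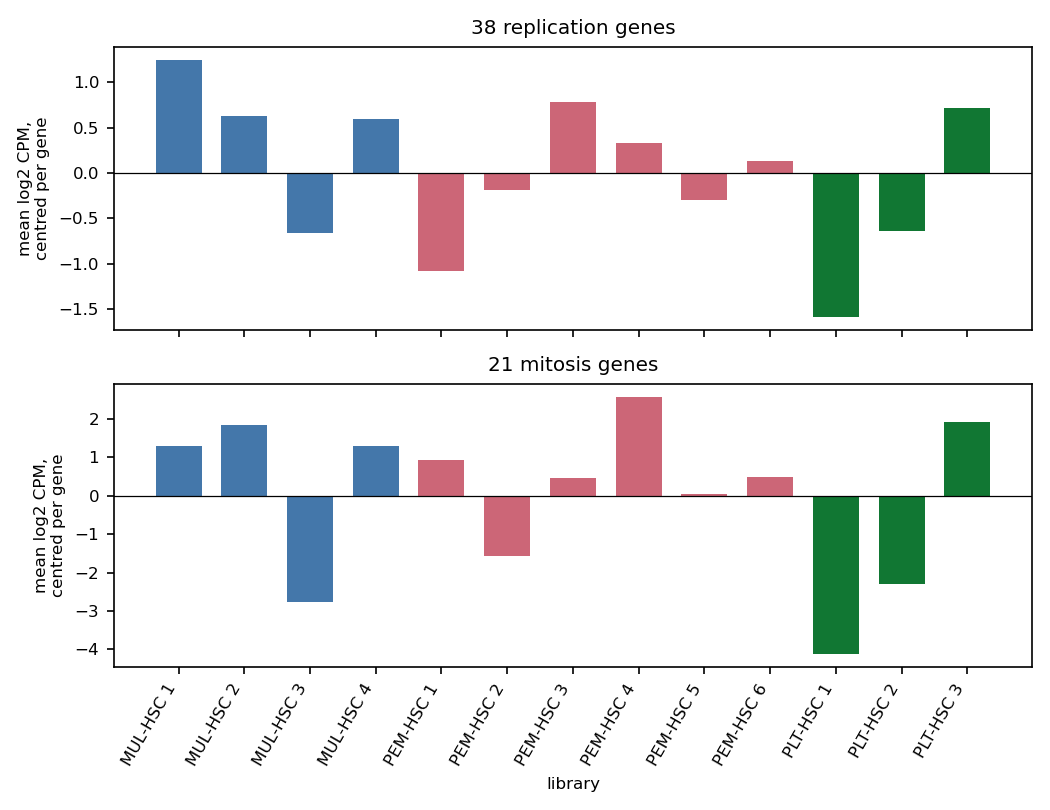
Mean log2 CPM in each library, centred on each gene's mean over the 13 libraries, for the 38 replication genes (upper panel) and the 21 mitosis genes (lower panel, with its own scale). MUL-HSC replicate 3 and PLT-HSC replicates 1 and 2 are below 0 in both panels, and PEM-HSC replicate 1 is at -1.07 in the upper and 0.91 in the lower.

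Of 11 cell cycle inhibitors, 8 had a higher estimate in PLT-HSC than in MUL-HSC, with a median of 0.28, and in PEM-HSC 5 did. By edgeR 0 were called in any comparison. At an unadjusted p under 0.05, Cdkn1c and Rb1 were higher in PLT-HSC and Cdkn1c in PEM-HSC than in MUL-HSC. Txnip was higher in PLT-HSC than in PEM-HSC at that level. Of all 12536 genes, 515, 482 and 198 were higher at that level in the same order of comparisons. DESeq2 called Cdkn1c in both comparisons with MUL-HSC, beside 2.24% and 1.67% of all genes it tested, and limma-voom called 0. Cdkn1c, which encodes the Cdk inhibitor p57 of resting HSCs, was at 31.7, 29.8, 40.4 and 31.8 CPM in MUL-HSC, at 99.5, 86.4, 93.9, 54.1, 89.3 and 55.6 CPM in PEM-HSC replicates 1 to 6, and at 146, 129 and 49.6 CPM in PLT-HSC. All 9 libraries of the restricted groups lay above all MUL-HSC libraries. Of all 12536 genes, 470 were higher without overlap in PLT-HSC and 108 in PEM-HSC, each against MUL-HSC. The log2 fold changes of Cdkn1c were 1.72 in PLT-HSC (SE 0.37, edgeR adjusted p = 0.132) and 1.24 in PEM-HSC (SE 0.33, edgeR adjusted p = 0.510). MUL-HSC replicate 3, low for the replication genes, had the highest Cdkn1c of its group, and PLT-HSC replicate 3, high for the replication genes, had the lowest of its group. In PEM-HSC, replicate 3 broke this order: it was the highest library for the replication genes and had the second highest Cdkn1c of that group. In PEM-HSC replicates 4, 6, 2, 5 and 1 the mean log2 CPM of the replication genes was 0.33, 0.13, -0.18, -0.30 and -1.07. Cdkn1c rose in that order, at 54.1, 55.6, 86.4, 89.3 and 99.5 CPM. MUL-HSC replicate 1 was the highest for the replication genes but not the lowest for Cdkn1c. This relation was not tested. Cdkn1c was named after its values were seen. Txnip and Btg1 had the highest CPM of this list, at 553 ± 328 and 103 ± 50.4 CPM in MUL-HSC and 827 ± 329 and 112 ± 89.8 CPM in PLT-HSC.

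Markers of later progenitors varied with the replication genes in part. Summed over Cd34, Flt3, Cd48, Mpo, Ctsg and Elane they reached 625, 511, 98.2 and 399 CPM in MUL-HSC replicates 1 to 4, 22.7 to 114 CPM in the PEM-HSC libraries, and 54.2, 29.7 and 66.4 CPM in PLT-HSC. Elane and Ctsg were at 0 in all MUL-HSC libraries and Mpo and Ctsg in all PLT-HSC libraries. MUL-HSC replicate 3, the lowest of its group for these markers, was also its lowest for the replication genes. PLT-HSC replicate 3 was the highest of its group for both, but its 66.4 CPM of these markers lay below every MUL-HSC library. PEM-HSC replicate 3, the highest of its group for the replication genes, was its lowest for these markers, at 22.7 CPM. Cd34 made up most of the sum, at 555, 449, 90.9 and 380 CPM in MUL-HSC. Macrophage markers (Emr1, C1qa, C1qb, Csf1r and Cd68) summed to 12.0 to 19.7 CPM in MUL-HSC, 30.4 to 286 CPM in PEM-HSC and 39.3 to 187 CPM in PLT-HSC, with Emr1 and Csf1r at 0 in MUL-HSC and Csf1r at 0 in PLT-HSC. Erythroid markers summed to 16.6 to 42.6 CPM in MUL-HSC, to 19.8 to 144 CPM in PEM-HSC and to 33.4 to 120 CPM in PLT-HSC. Megakaryocyte markers summed to 555 to 1214 CPM over all libraries, neutrophil markers to at most 14.4 CPM and B cell markers to at most 5.12 CPM. The part of these markers in the differences of the replication genes was not tested.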

How the data were processed

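RNA-seq read counts per gene symbol were deposited by the authors as 1 table of 13 libraries. Per the labels, polyadenylated RNA of sorted cells was turned into cDNA by a Smart-seq+ protocol and into Nextera XT libraries. Trimmomatic, FastQC, STAR and featureCounts with build mm9 are named in the submitters' processing notes. Versions, settings and strand mode are not given in the sources used here, so overlapping and antisense genes cannot be told apart, and Pcna and Tyms, which have pseudogene copies, are uncertain, since their reads may have been split. The counts were whole numbers with differing totals (16371921 to 41367057), and 92 spike-in features, 0.0191% to 0.0612% of reads, were left out.

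Counts were tested with edgeR 4.0.16 in R 4.3.3: filterByExpr (12536 genes kept), TMM scaling, a robust quasi-likelihood fit of all 13 libraries with a term per group, 3 contrasts, and Benjamini-Hochberg adjustment over all genes tested, with a call at an adjusted p under 0.05. The alternatives were DESeq2 1.42.0, limma-voom (limma 3.58.1), other scalings and filters, a fit without robust estimation, a fit of the 2 groups compared, the number of detected genes as a covariate, the replicate number as a block, and libraries left out.

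Members and lists were chosen with earlier results of these data known, so the list was given no test of its own. Full values are given for the 2 members of each role with the highest mean CPM and the 3 members with the smallest p in each comparison. Of the other lists, the 2 genes with the highest mean CPM were named, and further genes were named after their values were seen. Log2 CPM used a prior count of 2. Every pair of libraries within a group differed by more than the noise of counting reads (lowest chi-square per degree of freedom 166). This covers counting error only, and since reads without molecular identifiers are not independent molecules it does not show that the samples were separate.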

Additional observations from a re-analysis of the deposited data

Results flagged for a closer look

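Among the 76 sets of values formed by a replication gene in the 4 MUL-HSC or 6 PEM-HSC libraries, 7 held 1 library whose gap to the nearest of the others was large against the range of the group by Dixon's criterion. For independent and normally distributed values, chance alone flags about 1 in 20 sets. The sets here are CPM values of genes measured in the same libraries, so that rate need not hold for them. PEM-HSC replicate 3 was the high library in 4 of them: Orc1 at 28.6 CPM, where the next library had 6.34, Mcm3 at 304 CPM (next 142), Pola1 at 92.6 CPM (next 47.4) and E2f1 at 34.3 CPM (next 12.0). Gins1 was at 68.5 CPM in PEM-HSC replicate 4, where the next library had 20.8. In MUL-HSC, Orc6 was at 171 CPM in replicate 1 (next 91.2), and Fen1 was low in replicate 2, at 47.9 CPM (next 66.6). The criterion was applied to groups of at least 4 libraries, so PLT-HSC, with 3, was not examined by it.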

How the results depend on the processing

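The number of replication genes called by edgeR was 0 in each comparison under every alternative edgeR fit and under limma-voom, and no alternative reversed a median. DESeq2 called 1 gene, Rfc2, in PLT-HSC against MUL-HSC, with -1.27 on the log2 scale and an adjusted p of 0.0029. Over the 13 fits that each left out 1 library, the count of calls stayed from 0 to 0 and the median ran from -1.40 to -0.48 in PLT-HSC against MUL-HSC, from -0.68 to -0.19 in PEM-HSC against MUL-HSC and from -1.02 to -0.04 in PLT-HSC against PEM-HSC. The number of the 38 at an unadjusted p under 0.05 ran from 3 to 19, from 1 to 6 and from 0 to 15 in the same order. The share of all genes lower at that level ran from 2.45% to 4.20%, from 1.34% to 2.66% and from 1.72% to 2.87%. At most 37 of all genes were called in any of these fits. Without MUL-HSC replicates 1 and 2 together, the medians were -0.32 and -0.06 against MUL-HSC, and 20 of 38 genes were lower in PEM-HSC. With the number of detected genes as a covariate the medians were -1.24, -0.67 and -0.56.

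With the replicate number as a block, 0 of the 38 were called in each comparison, beside 2, 0 and 0 of all 12536 genes. The medians were -1.03, -0.59 and -0.52, and 5, 2 and 0 of the 38 had an unadjusted p under 0.05. Of all genes, 2.21%, 1.51% and 1.16% were lower at that level. No pairing of libraries by number was seen over all genes tested. The 10 same-number pairs had correlations of -0.13 to 0.05, 0 were over 0.1, and 1 of 11 libraries correlated best with its own number. These values were centred within small groups, so they cannot decide whether a number marks a shared animal or day.

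The signs of some single genes turned, not all of them with an estimate near 0, and the cause was not tested. In PLT-HSC against MUL-HSC, E2f1 was -0.22 with the block and -0.60 with the covariate, where Mcm4 was -0.61. In PEM-HSC against MUL-HSC, Mcm4 was 0.026 by limma-voom and 0.10 with the block, and E2f1 was -0.15 with the covariate. Without MUL-HSC replicates 1 and 2 the values there were 0.042 for Slbp, 0.33 for Pcna, 0.079 for Mcm4, 0.11 for Pola1 and 0.25 for Rpa2. In PLT-HSC against PEM-HSC, E2f1 was -0.36 by limma-voom, -0.62 with the block and -0.46 with the covariate, Mcm6 was 0.11 by limma-voom, and Tyms and Mcm4 were -0.029 and -0.024 with the covariate. Over the fits without 1 library, E2f1 ran from -0.33 to 1.27 and Mcm4 from -0.34 to 0.48 in PLT-HSC against MUL-HSC. In PEM-HSC against MUL-HSC, Pcna ran from -0.56 to 0.016, Mcm4 from -0.56 to 0.26 and E2f1 from -0.13 to 1.21. In PLT-HSC against PEM-HSC the ranges were -0.95 to 0.78 for E2f1, -0.51 to 0.60 for Tyms, -0.51 to 0.20 for Mcm6, -0.83 to 0.36 for Gins2, -2.14 to 0.44 for Gins1, -0.24 to 0.023 for Slbp and -2.91 to 0.25 for Cdt1. Calls over all genes differed between tools: edgeR made 6, 1 and 0 in the order of the comparisons above, DESeq2 286, 224 and 133, and limma-voom 0, 1 and 1. Mcm10, Ccne1, E2f1 and Orc1 were at 0 in some libraries and had wide intervals, and the part of depth in this was not tested.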
